A study of Mus musculus with 12 samples.

Results

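Genes of the plasminogen activation system were followed in mouse glomeruli, 6 in number: Plat, Plau, Plaur, Serpine2, Anxa2 and S100a10. All 6 were found by symbol among the 26264 gene symbols of the count tables, and all 6 passed the filter on low counts together with 17002 genes in all, the set over which every adjusted p was computed. RNA-seq had been performed on glomerulus-enriched kidney tissue of 8-week-old male BALB/cAJcl (AJcl, spelled BALB/cAjcl in the labels) and BALB/cByJcl (ByJcl) mice, a pair of substrains that descend from the same inbred BALB/c strain. Each substrain contributed 3 baseline libraries and 3 libraries taken on Day 5 after 1 intravenous dose of adriamycin (ADR, doxorubicin) at 10 mg/kg, an anthracycline that injures podocytes; no genotype beyond the substrain was given. The study calls the baseline mice untreated, whereas its treatment protocol gives saline to control animals, so whether baseline mice were injected is not settled. ADR cannot be told apart from any difference between the separate baseline and Day 5 count tables.

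Plasmin is the serine protease that dissolves fibrin and cleaves matrix proteins and latent growth factors. It arises from the zymogen plasminogen, which is cut by tissue-type plasminogen activator (Plat) or by urokinase (Plau), the latter held at the cell surface by the urokinase receptor (Plaur). Serpins such as protease nexin-1 (Serpine2) block the activators, while annexin A2 (Anxa2) and its partner S100a10 form a surface complex that binds plasminogen and tissue-type activator. In the glomerulus, the urokinase receptor is known from podocytes, where it couples to αvβ3 integrin.

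In ByJcl glomeruli the inhibitor Serpine2 and the binding partner S100a10 were higher at Day 5 than at baseline, by 1.83-fold and 1.62-fold, and passed the test across all genes. The call of Serpine2 held under every alternative setting, that of S100a10 was lost in 5 of 17 (adjusted p up to 0.118, edgeR). The activators Plat and Plau and the receptor Plaur did not pass it in any comparison of the main fit. In AJcl none of the 6 passed it between baseline and Day 5, where 0.312% of all tested genes did, against 10.6% in ByJcl. No difference between the responses of the substrains passed it, for the members or for any of the 17002 genes. The members had been selected on their expression values in these same libraries, without a record of which comparison was used, so that their values are a description and the tests are given only for scale.

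The libraries held between 42198416 and 54687045 counts (median 46915194), and every member was well above the counting floor, from 1619 counts for Plaur in the library with the fewest to 377958 for Plat in the library with the most. Levels are given as counts scaled to 1000000 per library (CPM) after TMM adjustment. The AJcl Day 5 library of replicate 1 was left out of the fit because the study excludes it for reduced glomerular purity, which leaves 2 AJcl and 3 ByJcl libraries at Day 5; its own values are given beside the others. The summed level of 6 tubule markers was 3736 CPM in that library, the highest of the 12, although an AJcl baseline library kept in the fit stood at 3555 CPM. The 8 podocyte markers were present in all libraries, with sums of 14630 to 19907 CPM (AJcl) and 18567 to 20649 CPM (ByJcl) at baseline, and 9241 to 15026 CPM and 7031 to 10301 CPM at Day 5. Fewer cells of a type and less RNA per cell cannot be told apart in such bulk tissue.

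The members lie on 6 different chromosomes in GRCm39. Plat (ENSMUSG00000031538) is at chr8:23247709-23272871, Plau (ENSMUSG00000021822) at chr14:20886722-20893453 and Plaur (ENSMUSG00000046223) at chr7:24161875-24175394, all on the plus strand. Serpine2 (ENSMUSG00000026249) is on the minus strand at chr1:79763323-79839144, Anxa2 (ENSMUSG00000032231) on the plus strand at chr9:69360542-69399077 and S100a10 (ENSMUSG00000041959) on the plus strand at chr3:93462213-93474510. Plau, Serpine2 and Anxa2 are overlapped by non-coding genes on the opposite strand (Gm63115, Gm39666 and Gm16144), and Anxa2 also holds Mir3109. The libraries were strand-specific, but the strand setting of the counting is not given in the sources used here, so reads of these overlaps are uncertain.

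RefSeq promoter sequences were held for 3 of the 6 members, Anxa2, Plaur and Serpine2. The 250 bases before each RefSeq start matched GRCm39 at a single place, and 4 motifs were searched on both strands: TGANTCA (the AP-1 site), GGGCGG (the GC box), TATAAA (the TATA box) and GGAATG (a TEAD site). The stretches that lie outside annotated exons are shown for Anxa2, part of the plasminogen-binding complex, and for the receptor Plaur, because both hold an AP-1 match. They run from 250 to 64 bases before the RefSeq start of Anxa2 (chr9:69360715-69360901, plus strand) and from 250 to 34 bases before that of Plaur (chr7:24161658-24161874, plus strand), with AP-1 and GC box matches in capitals. The annotated Anxa2 gene begins earlier, at chr9:69360542, so the Anxa2 stretch lies inside that gene, outside its exons. The Plaur stretch ends just before the annotated Plaur gene.
Anxa2: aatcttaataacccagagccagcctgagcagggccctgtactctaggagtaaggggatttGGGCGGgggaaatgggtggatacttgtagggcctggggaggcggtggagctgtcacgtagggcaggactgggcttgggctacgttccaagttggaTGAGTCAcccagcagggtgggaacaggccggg
Plaur: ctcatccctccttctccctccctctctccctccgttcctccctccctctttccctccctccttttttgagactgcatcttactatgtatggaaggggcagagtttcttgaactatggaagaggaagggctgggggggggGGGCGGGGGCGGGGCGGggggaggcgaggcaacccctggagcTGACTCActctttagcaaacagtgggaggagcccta
In the full 250 bases, TGANTCA occurred 1 time before Anxa2 and 1 time before Plaur and not before Serpine2, against 6.75% of all 32851 RefSeq promoters of this length. GGGCGG occurred 3 times before Anxa2, 3 times before Plaur and 6 times before Serpine2, with adjoining or overlapping matches in the latter pair, and was found in 32.7% of all promoters. TATAAA occurred 1 time, before Anxa2 (12.4% of all promoters), and GGAATG before none of the 3 (12.6%). The Serpine2 window is not shown because 95.6% of it lies in annotated exons of longer Serpine2 transcripts; it was 78.8% G and C. A match describes the letters only.

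Plat, the tissue-type activator, was among the most abundant transcripts of the glomerular libraries. Per kilobase of merged exons it ranked between 4 and 15 of 16465 genes in every library, and per kilobase of the canonical transcript between 1 and 7. In AJcl it was at 4776, 5169 and 4566 CPM at baseline and at 5909 and 4558 CPM at Day 5, with 5071 CPM in the left-out library. In ByJcl it was at 5174, 5724 and 6984 CPM at baseline and at 3663, 6367 and 4805 CPM at Day 5. The ByJcl baseline libraries were all above the AJcl ones, though the closest pair was 5174 against 5169 CPM, and at Day 5 the substrains overlapped. The group means ran from 4837 ± 306 CPM (SD, n = 3) in AJcl at baseline to 5961 ± 928 CPM (SD, n = 3) in ByJcl at baseline, and neighbouring groups in that order differed by less than their spread. The log2 fold change of ByJcl against AJcl was 0.32 ± 0.20 (SE; adjusted p = 0.655, edgeR) at baseline and -0.05 ± 0.22 (adjusted p = 0.932, edgeR) at Day 5. Between baseline and Day 5 it was 0.13 ± 0.22 in AJcl and -0.24 ± 0.20 in ByJcl.

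Plau, the urokinase gene, was measured at 162, 137 and 146 CPM in AJcl at baseline and at 116 and 151 CPM at Day 5 (169 CPM in the left-out library). In ByJcl it was at 122, 171 and 187 CPM at baseline and at 148, 246 and 195 CPM at Day 5. All groups overlapped, and the ByJcl Day 5 mean of 196 ± 49.0 CPM (SD, n = 3) was the highest of the 4 group means. The Day 5 difference between substrains was 0.58 ± 0.22 on the log2 scale (SE; adjusted p = 0.291, edgeR), and the change within ByJcl 0.32 ± 0.20 (adjusted p = 0.324, edgeR).

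Plaur, the urokinase receptor, was the least abundant member by CPM per kilobase. It stood at 45.9, 42.5 and 34.6 CPM in AJcl at baseline, at 36.4 and 47.4 CPM in AJcl at Day 5 (43.4 CPM in the left-out library) and at 34.5, 45.4 and 43.2 CPM in ByJcl at baseline. At Day 5, 2 ByJcl libraries were at 61.8 and 65.6 CPM, above all others, while the third was at 39.4 CPM, inside the range of the remaining groups. The change within ByJcl was 0.47 ± 0.20 on the log2 scale (SE; adjusted p = 0.167, edgeR). Without ByJcl Day 5 replicate 3 it was 0.69 and passed the test (adjusted p = 0.0274, edgeR).

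Serpine2, which encodes the activator and thrombin inhibitor protease nexin-1, had the clearest separation of the 6. AJcl libraries were at 514, 447 and 409 CPM at baseline and at 507 and 606 CPM at Day 5, with 569.8 CPM in the left-out library. ByJcl libraries were at 528, 509 and 489 CPM at baseline and at 909, 862 and 971 CPM at Day 5. The 3 ByJcl Day 5 libraries were above every other library, and the remaining 3 groups overlapped. Within ByJcl the log2 fold change was 0.87 ± 0.12 (SE; adjusted p = 0.00285, edgeR), and this held with an adjusted p of at most 0.0166 under each of the 17 alternative settings, all single-library omissions included. Within AJcl it was 0.31 ± 0.14 (adjusted p = 0.502, edgeR). The Day 5 difference between substrains was 0.74 ± 0.14 (adjusted p = 0.0750, edgeR), which passed the threshold with all 12 libraries (0.73, adjusted p = 0.0280, edgeR) and with DESeq2 (adjusted p = 5.09e-05). Leaving out either fitted AJcl Day 5 library leaves 1 in that group, assumed to vary like the other groups, and gave 0.60 (adjusted p = 0.983, edgeR) without replicate 2 and 0.91 (adjusted p = 0.0368, edgeR) without replicate 3. The other single omissions did not pass the test (adjusted p from 0.0537 to 0.172, edgeR).

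Anxa2, the larger subunit of the plasminogen-binding complex, was second to Plat in CPM per kilobase. It was at 674, 643 and 555 CPM in AJcl at baseline and at 568 and 565 CPM at Day 5 (636 CPM in the left-out library), and at 717, 609 and 668 CPM in ByJcl at baseline. At Day 5 the ByJcl libraries were at 749, 729.6 and 731 CPM, a narrow range above all other libraries. The largest baseline value, 717 CPM, lay close below them. The log2 fold change within ByJcl was 0.17 ± 0.12 (SE; adjusted p = 0.369, edgeR) and the Day 5 difference between substrains 0.41 ± 0.13 (adjusted p = 0.228, edgeR; 0.0394 with DESeq2).

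S100a10, the smaller subunit, which Anxa2 protects from degradation, was at 129, 96.2 and 85.2 CPM in AJcl at baseline and at 109.9 and 102 CPM at Day 5. The left-out AJcl library was at 162 CPM, higher than every other AJcl library. ByJcl was at 133, 105 and 131 CPM at baseline and at 173, 234 and 179 CPM at Day 5, so the ByJcl Day 5 libraries were above all others, by a narrow margin over the left-out library. Within ByJcl the log2 fold change was 0.69 ± 0.17 (SE; adjusted p = 0.0284, edgeR), and within AJcl 0.05 ± 0.19 (adjusted p = 0.956, edgeR). The ByJcl call was lost with all 12 libraries (adjusted p = 0.0639, edgeR) and without ByJcl baseline replicate 1 (0.0538), 2 (0.111) or 3 (0.0613) or ByJcl Day 5 replicate 2 (0.118), with values between 0.54 and 0.78 over all settings. The Day 5 difference between substrains was 0.91 ± 0.20 (adjusted p = 0.105, edgeR; 0.0015 with DESeq2).

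**Figure D1:**
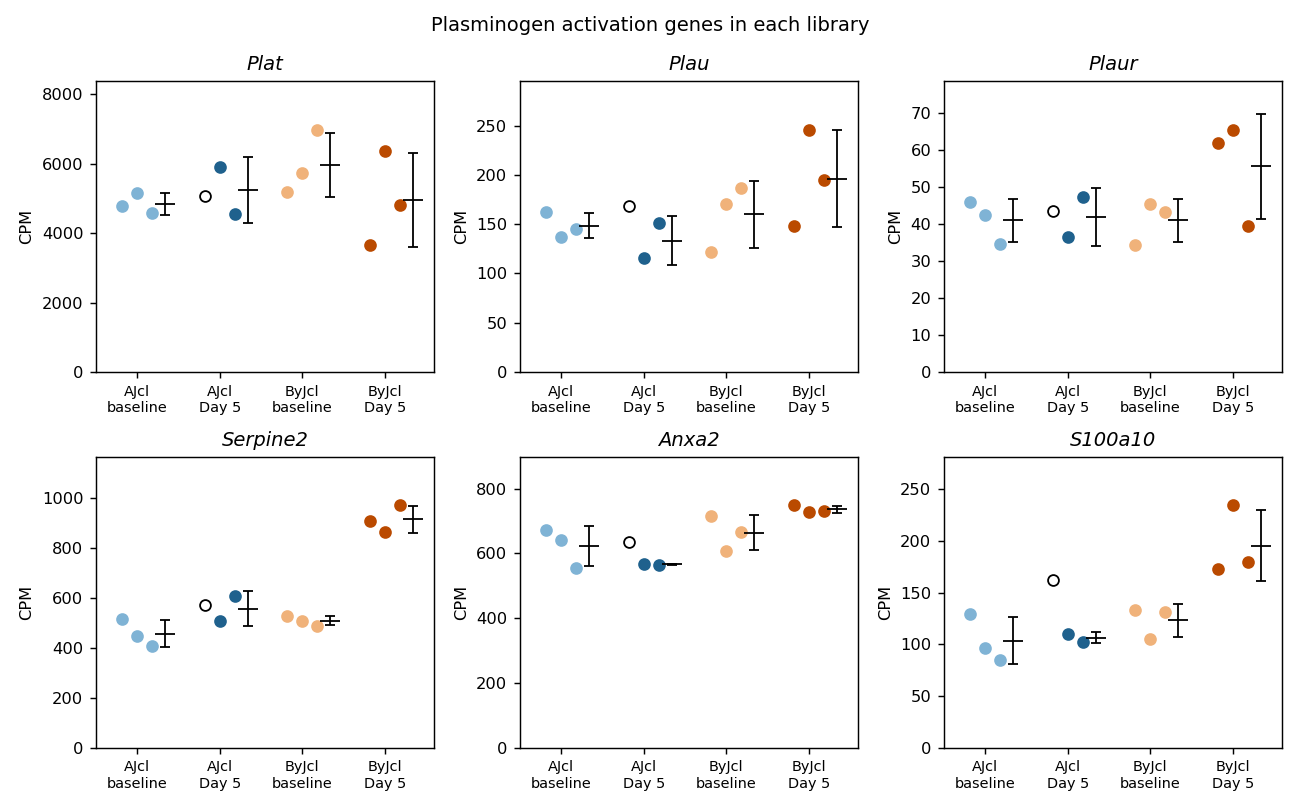
Levels of the 6 genes in each of the 12 libraries, in CPM, by substrain and time; filled points are libraries of the fit, the open point is the AJcl Day 5 library left out of it, and the black mark and bar are the mean and SD of the fitted libraries. The ByJcl Day 5 points lie above all others for Serpine2 (862 to 971 CPM), Anxa2 (729.6 to 749 CPM) and S100a10 (173 to 234 CPM), whereas they overlap the others for Plat, with the lowest point of all at 3663 CPM, and for Plau, with the highest ones at 195 and 246 CPM.

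The first comparison asked whether the substrains differed before treatment. At baseline edgeR called 0 of the 6 members (0.159% of all tested genes were called), 0 had an unadjusted p below 0.05 (8.34% of all genes did) and DESeq2 called 0 (0.594% of all genes). The libraries of the substrains did not overlap for 1 member, Plat, against 14.5% of all tested genes (8.22% with ByJcl higher). The median log2 fold change of the 6 was 0.15, beside 0.01 over all genes.

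The second comparison was between the substrains at Day 5. edgeR again called 0 members (0.165% of all tested genes were called), 4 had an unadjusted p below 0.05 (Serpine2, S100a10, Anxa2 and Plau; 14% of all genes did) and DESeq2 called 3 of these, all but Plau (3.15% of all genes). The libraries did not overlap for 3 members, Serpine2, Anxa2 and S100a10, all higher in ByJcl, against 32.3% of all tested genes in either direction and 15.1% with ByJcl higher. The median over the members was 0.51, beside 0.00 over all genes.

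The response to ADR was then taken in each substrain. In AJcl edgeR called 0 members (0.312% of all tested genes were called), 1 member, Serpine2, had an unadjusted p below 0.05 (9.8% of all genes did), DESeq2 called 0 (1.77% of all genes), and no member separated the time points (25.6% of all genes did). In ByJcl edgeR called 2 members, Serpine2 and S100a10, both higher (10.6% of all tested genes were called, 5.75% as higher), 3 with Plaur had an unadjusted p below 0.05 (26.8% of all genes did) and DESeq2 called the same 2 (15.8% of all genes). The libraries did not overlap for 3 members, all higher at Day 5 (33.6% of all genes, 15.9% as higher). Nothing about the group is read from these counts, since its choice may rest on this comparison. Whether the responses differed was tested as an interaction: 0 members and 0 of the 17002 genes were called by edgeR, 1363 genes (8.02%) and 2 members (Serpine2 and S100a10) had an unadjusted p below 0.05, and DESeq2 called 22 genes (0.129%) and 0 members. The interaction was 0.57 ± 0.19 for Serpine2 and 0.64 ± 0.26 for S100a10 (log2, SE; adjusted p = 0.620 for both, edgeR), and -0.37 ± 0.30 for Plat. These comparisons share groups and are not independent of each other.

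**Figure D2:**
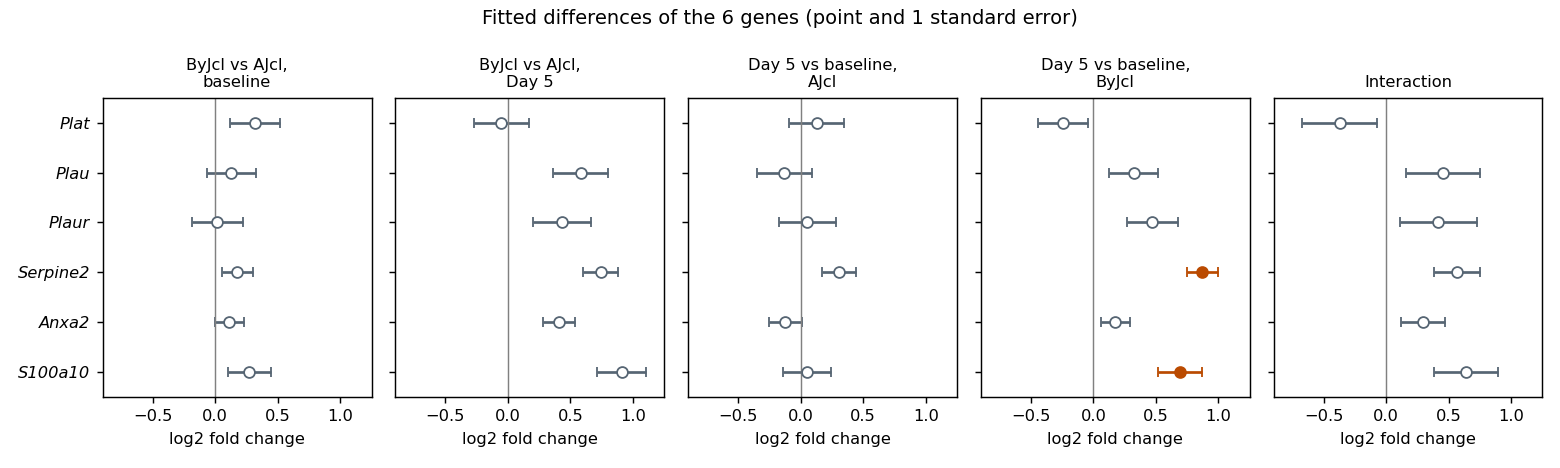
Log2 fold changes of the 6 genes in the 4 comparisons and in the interaction, with bars of 1 standard error from edgeR; filled orange points have an adjusted p below 0.05. Only Serpine2 (0.87) and S100a10 (0.69) in ByJcl between baseline and Day 5 are filled, and all values of the baseline comparison lie between 0.02 and 0.32.

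Because a ratio of genes within a library does not depend on how libraries are scaled, the members were also set against each other. Ratios were taken of CPM per kilobase of merged exons. The ratio of Plat to Plau, the main activators, was 9.11, 9.53 and 9.08 in the ByJcl Day 5 libraries and 10.9 to 18.8 in the other 9. Its group mean was 13.9 ± 1.67 (SD, n = 3) in ByJcl at baseline and 9.24 ± 0.249 (SD, n = 3) at Day 5, a quotient of 0.664, and 12.1 ± 1.57 (SD, n = 3) and 15.0 ± 5.45 (SD, n = 2) in AJcl, a quotient of 1.24. ByJcl at Day 5 was thus the group in which urokinase transcripts came closest to those of the tissue-type activator.

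The ratio of Anxa2 to S100a10 was 5.99, 4.30 and 5.62 in ByJcl at Day 5 and 7.03 to 9.23 in the other libraries of the fit. The left-out AJcl library, at 5.42, lay inside the ByJcl Day 5 range. The ByJcl mean went from 7.50 ± 0.507 to 5.31 ± 0.891 (SD, n = 3 each), a quotient of 0.708, against 0.87 in AJcl.

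The summed activators (Plat plus Plau) stood at 20.4 ± 2.18 (SD, n = 3) times the level of Serpine2 in AJcl at baseline and 18.1 ± 5.08 (SD, n = 2) times at Day 5. In ByJcl the ratio was 22.3 ± 4.37 at baseline and 10.7 ± 3.36 at Day 5 (SD, n = 3 each), a quotient of 0.478. The ByJcl Day 5 libraries, at 7.90, 14.4 and 9.70, were all below the lowest other library, an AJcl Day 5 library at 14.5. The ratio of Plau to its receptor Plaur had quotients of 0.87 in AJcl and 0.954 in ByJcl. Quotients of single genes do not depend on the lengths used, whereas the ratios themselves do. With canonical transcript lengths, chosen after the data were seen, Plat to Plau was 34.2 ± 4.11 in ByJcl at baseline and 22.8 ± 0.612 at Day 5, and Plat plus Plau to Serpine2 was 10.3 ± 2.01 and 4.86 ± 1.54 (SD, n = 3 each). In AJcl these ratios were 29.8 ± 3.87 and 9.41 ± 1.04 at baseline (SD, n = 3) and 36.9 ± 13.4 and 8.40 ± 2.48 at Day 5 (SD, n = 2).

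**Figure D3:**
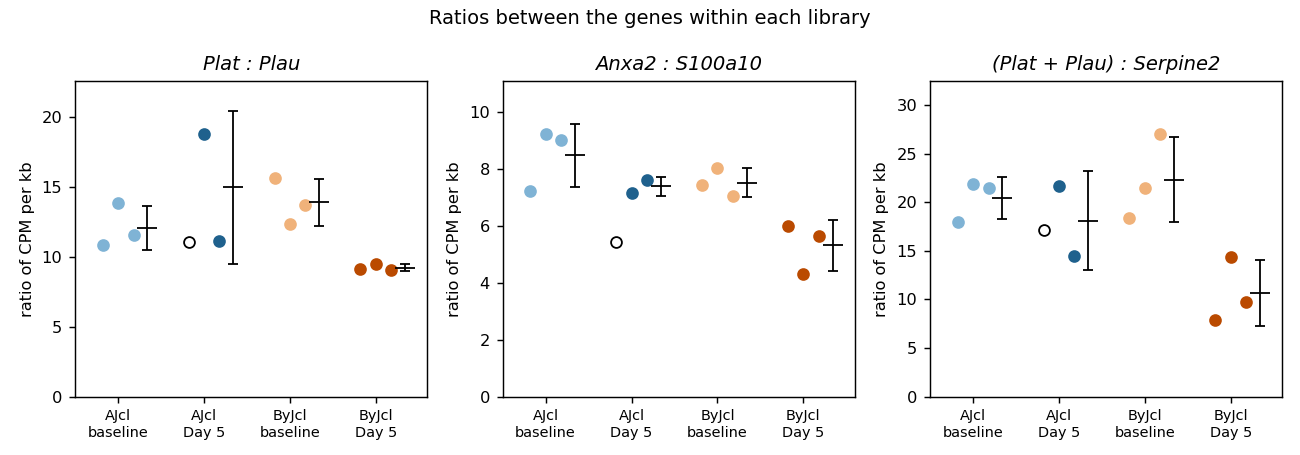
Ratios of CPM per kilobase within each library, by substrain and time, with points, mean and SD drawn as for the levels; the open point is the AJcl Day 5 library left out of the fit. The ByJcl Day 5 libraries have the lowest ratios of Plat to Plau (9.08 to 9.53) and of Plat plus Plau to Serpine2 (7.90 to 14.4), and for Anxa2 to S100a10 the left-out library lies among them at 5.42.

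Levels of the 6 members were compared with each other per kilobase only. Over the 11 libraries of the fit, the mean was 752 CPM per kilobase for Plat, 130 for Anxa2, 63.0 for Plau, 49.8 for Serpine2, 19.4 for S100a10 and 11.3 for Plaur. Within each group neighbours in this order did not overlap, except Plau and Serpine2 at Day 5 in both substrains. With the canonical transcript of each gene as its length, chosen after the data were seen, Serpine2 (278) came before Plau (68.9), S100a10 and Plaur overlapped in AJcl, and Plau and S100a10 overlapped in ByJcl at Day 5; Plat, at 2025, and Anxa2, at 453, remained first and second. The order in the middle of the group therefore rests on the transcript model.

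Of 45 further genes around the system, listed by role with earlier results of these data known, 40 were tested. Between baseline and Day 5 in ByJcl, edgeR called 8 higher and 1 lower (10.6% of all tested genes were called, 5.75% as higher), with a median log2 fold change of 0.24 beside 0.01 over all genes, and DESeq2 called 14 (15.8% of all genes). In AJcl 0 were called by edgeR, 2 had an unadjusted p below 0.05 (9.8% of all genes did) and DESeq2 called 1, Anxa3 (1.77% of all genes). Between the substrains edgeR called 0 at baseline, where 2 had an unadjusted p below 0.05 (8.34% of all genes did) and DESeq2 called 0 (0.594% of all genes). At Day 5 edgeR called 0, 14 had an unadjusted p below 0.05 (14% of all genes did) and DESeq2 called 5 (3.15% of all genes). No list holds plasminogen itself among its tested genes, as Plg and F12 did not pass the filter. Klkb1, plasma kallikrein, was low at a mean of 0.485 CPM, with 0 counts in ByJcl replicate 1 at both times.

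Among the other inhibitors, 1 of the 6 tested was called higher in ByJcl by edgeR (5.75% of all tested genes were). DESeq2 called another, Serping1, the C1 inhibitor (15.8% of all genes). Serpinb2, plasminogen activator inhibitor-2, had 0 counts in all 6 baseline libraries and 20, 62 and 42 counts in ByJcl at Day 5. This was 14.9-fold above a floor of 3 counts in each baseline library, which takes each count as a separate fragment. Its counts were all even, and if both mates of a pair were counted, that floor is too low and the fold above it smaller. The call of Serpinb2 (adjusted p = 0.0321, edgeR) was lost with DESeq2 (adjusted p = 0.0544). AJcl at Day 5 had 0 and 18 counts, and 6 in the left-out library. Serpini1, neuroserpin, the inhibitor of highest mean CPM among those called by neither tool, was at 223 ± 18.3 CPM in ByJcl at baseline and 264 ± 66.6 CPM at Day 5 (SD, n = 3 each).

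Of the 10 receptors and binding proteins, edgeR called 3 higher in ByJcl and 1 lower (10.6% of all tested genes were called, 5.75% as higher). Thbd, thrombomodulin, was at 352, 359 and 323 CPM in ByJcl at baseline and 465, 817 and 502 CPM at Day 5 (log2 fold change 0.81, adjusted p = 0.0291, edgeR). The call of Thbd was lost without ByJcl Day 5 replicate 2, its highest library, with values from 0.52 to 0.96 over the single omissions. Itgb3, the β3 integrin chain that pairs with the urokinase receptor, was at 7.67, 11.5 and 8.91 CPM at baseline and 11.7, 58.2 and 20.8 CPM at Day 5 (1.72, adjusted p = 0.0342, edgeR), and without the highest library, ByJcl Day 5 replicate 2, the value was 0.82 (adjusted p = 0.0970, edgeR). Its partner Itgav, the gene of highest mean CPM in the list among those not called by edgeR, went from 348 ± 20.6 to 452 ± 66.8 CPM (SD, n = 3 each; adjusted p = 0.0707, edgeR; 0.0192 with DESeq2). Eno1, a glycolytic enzyme that also binds plasminogen and has a near-identical copy, had a log2 fold change of 0.54 (adjusted p = 0.0186, edgeR), and Mrc2, a collagen receptor that associates with the urokinase receptor, one of -0.63 (adjusted p = 0.0452, edgeR). Both calls were lost with all 12 libraries (adjusted p = 0.0789 and 0.0817, edgeR).

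The relatives of Anxa2 and S100a10 were also examined. Of 7 other annexins, edgeR called Anxa3, Anxa1 and Anxa5 higher in ByJcl (5.75% of all tested genes were). Anxa3 was at 92.6, 76.3 and 97.0 CPM at baseline and at 253, 418 and 361 CPM at Day 5 (log2 fold change 1.98 ± 0.23, adjusted p = 0.00142, edgeR), and AJcl was at 88.0, 76.3 and 69.0 CPM and at 107 and 186 CPM (166 CPM in the left-out library). Here the AJcl libraries at Day 5 also stood above those at baseline (0.94 ± 0.25, adjusted p = 0.204, edgeR). Anxa1, a mediator of glucocorticoid action, had a log2 fold change of 1.10 (adjusted p = 0.00606, edgeR) and Anxa5, a phosphatidylserine-binding protein, one of 0.41 (adjusted p = 0.0262, edgeR). The call of Anxa5 was lost without ByJcl baseline replicate 2 or 3 or ByJcl Day 5 replicate 2, with values from 0.37 to 0.47 over the single omissions. Anxa7, the annexin of highest mean CPM among those not called by edgeR, was at 182 ± 8.16 CPM in ByJcl at baseline and 215 ± 10.5 CPM at Day 5 (SD, n = 3 each; adjusted p = 0.0257 with DESeq2). Of 6 other S100 genes, edgeR called S100a6 higher (1.04, adjusted p = 0.0282, edgeR), beside the same share of all genes. The call of S100a6 was lost without ByJcl baseline replicate 2 or 3 or ByJcl Day 5 replicate 2, with values from 0.88 to 1.23 over the single omissions. S100a11, the one of highest mean CPM among the others, was close to the threshold (0.48, adjusted p = 0.0542, edgeR). DESeq2 called S100a6, S100a11 and S100a4 (15.8% of all genes were called).

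None of the 5 genes of the clearance list or the 5 tested substrates was called by edgeR in ByJcl. Lrp2 of the clearance list also counts among the tubule markers. In the clearance list 0 had an unadjusted p below 0.05 and DESeq2 called 0, and in the substrate list 4 had one and DESeq2 called 1, the fibrinogen chain Fga, beside 26.8% and 15.8% of all genes. Lrp1, the endocytic receptor that removes activator and inhibitor complexes, was at 524 ± 170 CPM in ByJcl at baseline and 378 ± 59.9 CPM at Day 5 (SD, n = 3 each; adjusted p = 0.276, edgeR), and all 5 clearance values were below 0 (median -0.30). Pdgfd, a growth factor activated by urokinase, was at 65.7 ± 5.10 and 51.6 ± 6.71 CPM (SD, n = 3 each; adjusted p = 0.202, edgeR). Without ByJcl baseline replicate 2 or 3, or without ByJcl Day 5 replicate 2, 2 of the 9 calls in ByJcl were left, those of Anxa1 and Anxa3, and without ByJcl baseline replicate 1 there were 3 of them.

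**Figure D4:**
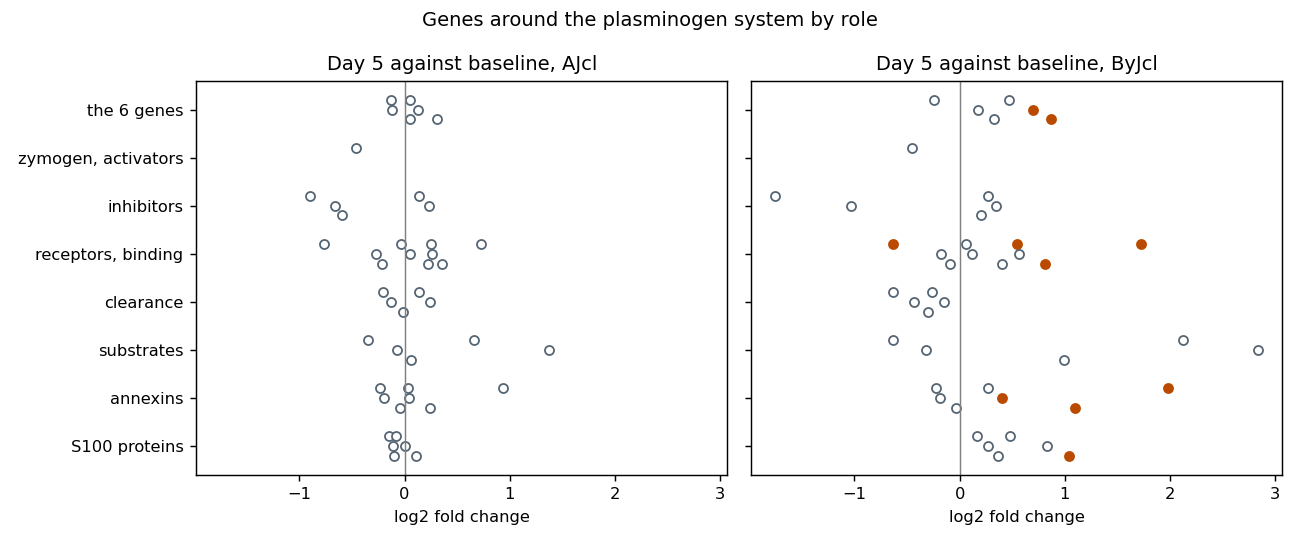
Log2 fold changes from baseline to Day 5 in AJcl (left) and ByJcl (right) for the 6 genes and for 39 of the 40 tested genes of the lists by role; each point is a gene, filled orange where the adjusted p of edgeR is below 0.05, and vertical offsets within a row only separate points. Serpinb2 is not drawn because its baseline counts are 0; no AJcl point is filled, whereas in ByJcl Anxa3 (1.98) and Anxa1 (1.10) are among the filled points.

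Markers of other cells were set beside these values. From baseline to Day 5 in ByJcl edgeR called 10.6% of all tested genes, 5.75% as higher. All 8 podocyte markers fell there (median -1.20), and 1 of 4 smooth muscle markers (summed level 310 to 387 CPM at baseline, 493 to 623 CPM at Day 5) and 2 of 3 parietal cell markers (73.4 to 85.0 and 91.5 to 134 CPM) were called higher. In AJcl 0 of the 8 podocyte markers was called by edgeR (0.312% of all tested genes were), with a median of -0.40. The smooth muscle sum of the AJcl libraries stayed between 340 and 408 CPM. Of the 5 myeloid markers 1 was called higher in ByJcl and 3 had values below 0 (median -0.39). Their sums were 65.8 to 112 CPM at baseline and 67.7 to 121 CPM at Day 5. Of 7 endothelial markers 2 were called lower. Mesangial sums overlapped (1597 to 2014 and 1507 to 2112 CPM), tubule sums were 392 to 1514 and 323 to 1286 CPM, the 4 lymphocyte markers summed to at most 2.01 CPM, and 2 of 3 erythroid markers were at 0 throughout. The third, Alas2, an enzyme of haem synthesis in red cell precursors, was called lower at Day 5 by edgeR in AJcl (log2 fold change -3.46; 7.03 to 10.4 CPM at baseline, 0.194 to 0.828 CPM at Day 5) and in ByJcl (-3.50; 4.57 to 8.33 and 0.171 to 0.948 CPM), the only marker called over time in AJcl. Some markers also differed between the substrains. The myeloid sums of AJcl, 38.5 to 61.6 CPM at baseline and 31.5 to 63.8 CPM at Day 5, lay below those of ByJcl at both times (median log2 fold change of ByJcl against AJcl 1.14 and 1.08). At Day 5, 1 of the 5 myeloid markers went the other way (-0.49). All 6 tubule markers had lower fitted values in ByJcl (medians -0.93 at baseline and -1.11 at Day 5), with AJcl sums of 1009 to 3555 and 1412 to 3736 CPM, which lay above the ByJcl sums at Day 5. At Day 5 the 8 podocyte markers had a median of -0.66 and 1 of 4 smooth muscle markers was called higher in ByJcl by edgeR, the only marker so called between the substrains. The part of these cell types in the values of Serpine2, Anxa2, S100a10 and the other genes was not tested.

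The genes whose levels most resembled each member were named by Pearson correlation of log2 CPM over the 12 libraries, which share the 4 groups, so that a gene separating the same group scores high. For Serpine2 they included Tagln2 (r = 0.98) and Ilk (0.97). For Anxa2 they were Fez2 (0.96), Mxra7 (0.91) and Pitpna (0.90), and for S100a10 Ogg1 (0.95), Arf6 (0.94) and Serpinb6a (0.94). Plaur was closest to Ube2cbp (0.96), P2ry12 (0.92) and Fli1 (0.90), Plau to Baz1a (0.89), Pcsk1 (0.89) and Arfgap3 (0.89), and Plat to Eif4b (0.88), Hoxa2 (0.87) and Mllt10 (0.84). Among the members themselves the values over the 12 libraries were 0.83 for Serpine2 with S100a10, 0.81 for Anxa2 with S100a10 and 0.68 for Serpine2 with Anxa2, while Plat had values between -0.27 and 0.33 with the other 5. All of these describe 12 libraries and carry no test.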

How the data were processed

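Glomeruli were isolated with magnetic beads, and poly(A)-selected, strand-specific libraries were read as 2 × 150 bp pairs. Trimmomatic, STAR (on GRCm39) and featureCounts were used by the authors, who deposited whole-number counts per gene symbol; annotation and strand setting are not given in the sources used here. Between 77.1% and 82.9% of counts from 1 to 49 were even, so both mates of a read pair may often have been counted. A floor given in counts is then too low. Precision rests on 2 or 3 animals a group; floors cover counting error only.

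Counts of 11 libraries were fitted with edgeR 4.0.16 (TMM, filterByExpr, quasi-likelihood, 1 coefficient per group) in R 4.3.3, with Benjamini-Hochberg adjustment over 17002 genes and calls at 0.05; standard errors came from the F statistic. The residual degrees of freedom were 7. DESeq2 1.42.0, other filters and scalings, all 12 libraries, a replicate block and single omissions were alternatives. The procedure was tested on simulated counts. Lengths came from GENCODE on GRCm39, for 16465 tested genes; promoters came from RefSeq (GRCm38.p6) and were placed on GRCm39 by exact match.

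The members and lists were chosen with earlier results of these data known. Named were the members, every listed gene called, the uncalled gene of highest mean CPM in each list, and the 3 nearest patterns per member; 1 gene is not reported here. Each library is taken as a separate animal; if the labels' replicates are not, p-values measure technical spread.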

Additional observations from a re-analysis of the deposited data

How the results depend on the processing

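Of 510 alternative values for the members, 483 kept direction and side of the threshold, 6 newly passed it, 5 no longer did (all S100a10 in ByJcl) and 16 changed sign, none of them called. Over the 9 listed genes called by edgeR in ByJcl over time, 114 of 153 were kept and 39 no longer passed. Causes were not tested.

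With DESeq2, 101 genes were called at baseline, 535 at Day 5 (3 members, 5 listed genes), 301 in AJcl over time (1 listed gene) and 22 in the interaction, and 14 listed genes in ByJcl over time. Without a filter, 56 were called at Day 5 and 99 in AJcl over time. With all 12 libraries, 72 were called at Day 5 (1 member, 1 listed gene) and 1197 in ByJcl over time (1 member), and the AJcl quotients were 0.934 for Plau to Plaur and 0.793 for Anxa2 to S100a10. Leaving out single libraries gave 12 to 29 genes at baseline, 9 to 218 at Day 5 (0 to 1 members, 0 to 2 listed genes), 11 to 180 in AJcl over time (0 to 1 listed genes), 680 to 2056 in ByJcl over time (1 to 3 members, 2 to 11 listed genes) and 0 to 5 in the interaction. Without either fitted AJcl Day 5 library, that group is 1 library, assumed to vary like the other groups.

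Same-numbered libraries did not deviate together (15 correlations from -0.239 to 0.374), so the replicate block has no basis in the design. With it, 19 genes were called at baseline, 19 at Day 5 (0 listed genes), 26 in AJcl over time, 1592 in ByJcl over time (2 members) and 0 in the interaction.

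Values that changed sign lay near 0. For Plaur at baseline they were -0.0083 with a minimum of 10 counts in total and -0.0091 with 12 libraries, and -0.10 to 0.12 over the single omissions. Over the same omissions Plau at baseline ran from -0.0011 to 0.28 and Plat at Day 5 from -0.27 to 0.12 (0.024 with the block). In AJcl over time the ranges were -0.20 to 0.24 for Plaur, -0.071 to 0.23 for S100a10, -0.054 to 0.26 for Plat and -0.38 to 0.058 for Plau. All members were well above the counting floor, and the fit had 7 residual degrees of freedom. A difference that was not called is therefore not shown to be absent, and what limited the calls was not tested.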
